A study of Mus musculus with 9 samples.

Results

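The barrier and water channel genes of the proximal tubule were described from a list of 10 gene symbols: the aquaporins Aqp1, Aqp7 and Aqp11, the tight junction genes Cldn1, Cldn2, Ocln and Tjp1, and the cadherins Cdh1, Cdh2 and Cdh16. The list was made from the symbols alone, with no measured value in the rule. It covered 10 of the 24421 genes in the deposited table. All 10 were among the 15609 genes that passed the filter on low values (0.3 CPM in at least 2 of 9 mice, where CPM is the count scaled to the TMM-adjusted library size). RNA was sequenced from tdTomato-positive proximal tubular cells sorted from the kidney cortex of 3 mice per group, on a C57BL/6 background. The *db/m* mice were non-diabetic heterozygotes for the Lepr db allele, the *db/db* mice were diabetic homozygotes given vehicle, and the *db/db*-dapa mice were homozygotes given dapagliflozin, an inhibitor of the sodium-glucose co-transporter SGLT2, at 1.5 mg/kg/day in drinking water for 8 weeks. All 3 groups, the controls included, carried a tamoxifen-inducible Cre recombinase (CreERT2) inserted at the Slc34a1 locus and the R26tdTomato reporter, and were injected 5 times with 3 mg of tamoxifen from the age of 8 weeks. The sorted fraction therefore held cells that had used the Slc34a1 promoter, whereas the labels name the tissue only as kidney.

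Water crosses the proximal tubule mainly through aquaporin-1 in the apical and basolateral membranes, and water and cations also pass between the cells through pores formed by claudin-2. Claudins and occludin form the tight junction strands, ZO-1 (Tjp1) ties them to the actin cytoskeleton, and cadherins hold neighbouring cells together at the adherens junction below. In the kidney, E-cadherin (Cdh1) is best known from distal tubules and collecting ducts, N-cadherin (Cdh2) from proximal tubules of several species, and Ksp-cadherin (Cdh16) is a cadherin of tubular epithelia.

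Total estimated counts ranged from 4818410 to 6572285 in *db/m*, from 2733978 to 7636494 in *db/db* and from 6981975 to 9033920 in *db/db*-dapa mice. The lowest total was in a *db/db* mouse and the highest in a treated mouse. The *db/db* range overlapped both others, but each treated total was above each *db/m* total. The 10 proximal tubule markers fixed for the check summed to between 12236 and 20484 CPM in the 9 mice, led by Slc34a1, the phosphate transporter of the proximal tubule, with a mean of 4493 CPM. Markers of other cell types were lower but present. The 6 markers of the thick ascending limb summed to between 572.2 and 2009 CPM, the 5 of the distal convoluted tubule to between 320.1 and 933.6 CPM, and the 8 of principal cells of the collecting duct to between 161.2 and 841.7 CPM. The highest sums of all these 3 lists were in *db/m* mouse 3. Mice are named by their group and a number, which gives no order. Because each library came from many cells, fewer cells of a type and less RNA per cell cannot be told apart in any value given here.

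No gene of the list was called in any comparison. The call needed a log2 fold change beyond 1 in either direction and an adjusted p below 0.1, from the quasi-likelihood test of edgeR with p adjusted by Benjamini-Hochberg over all 15609 genes. For untreated *db/db* against *db/m*, 0 of the 10 were called, beside 1.17% of all genes tested. For treated against untreated *db/db* mice 0 of 10 were called, beside 0% of all genes, and for treated *db/db* against *db/m* mice 0 of 10, beside 0.999%. At an unadjusted p under 0.05, edgeR gave 1, 0 and 1 of the 10 genes in these comparisons, each time Tjp1, against 13.8%, 5.18% and 18.1% of all genes. In the test over all 3 groups 0 of 10 genes had an adjusted p under 0.1, against 1.29% of all genes, and 1 of 10, Tjp1, had an unadjusted p under 0.05, against 14.1%. DESeq2 and limma also called 0 of the 10 genes in each comparison, although DESeq2 called 12 genes over the whole table when treated and untreated *db/db* mice were compared, where edgeR and limma called 0. With shares this low among all genes, a count of 0 among 10 does not set the list apart. Groups did not overlap, with the first-named group higher, for 1 (Tjp1), 1 (Aqp11) and 3 (Aqp11, Cldn2 and Tjp1) of the 10 genes in the 3 comparisons, beside 8.21%, 4.96% and 14.4% of all genes. They did not overlap with the first-named group lower for 0 of the 10 genes in each, beside 8.14%, 5.23% and 13.8% of all genes.

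**Figure D1:**
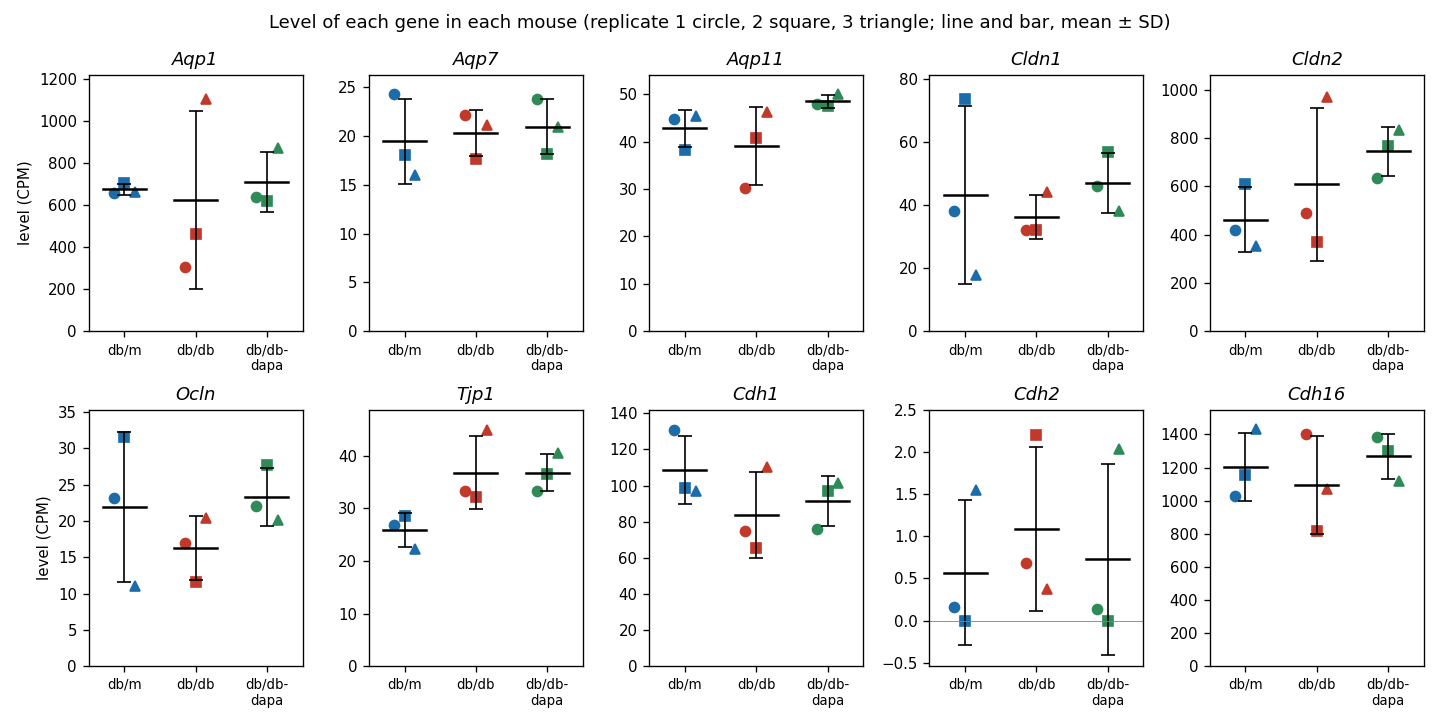
Level of each of the 10 genes in each of the 9 mice, in CPM on a linear axis from 0 (lower for Cdh2, whose SD bars cross 0). Circles, squares and triangles stand for mice 1, 2 and 3 of each group, the line for the mean and the bar for 1 SD (n = 3). Tjp1 was lower in all 3 db/m mice than in the other 6, whereas the levels of Aqp1 in db/db mice spread from below to above both other groups.

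Aqp1, the constitutive water channel of the proximal tubule and thin descending limb (chr6:55336432-55348555 in GRCm38, plus strand, 4 exons), was the most abundant of the 3 aquaporins. Its level was 659.2, 707.2 and 665.2 CPM in *db/m* mice 1 to 3, 305.8, 462 and 1107 CPM in *db/db* mice, and 637.6, 619.7 and 874.9 CPM in *db/db*-dapa mice. The 3 *db/m* mice lay close together, 2 *db/db* mice lay below all other mice, and the third *db/db* mouse lay above all of them. The group means were 677.2 ± 26.18 CPM in *db/m*, 624.9 ± 424.6 CPM in *db/db* and 710.7 ± 142.5 CPM in *db/db*-dapa (SD, n = 3 each). The log2 fold change was -0.11 (95% interval -0.93 to 0.70, SE 0.37) for *db/db* against *db/m*, with an adjusted p of 0.918 in edgeR. The fitted values depended on *db/db* mouse 3. In a fit without it, Aqp1 was -0.82 on the log2 scale in *db/db* against *db/m* mice (adjusted p = 0.132, edgeR) and 0.90 in treated against untreated *db/db* mice (adjusted p = 0.0946, edgeR), under the fold threshold. In that fit 420 of 15542 genes had an adjusted p under 0.1 for the second comparison, against 0 with all 9 mice. The test over 3 groups in that fit gave Aqp1 an adjusted p of 0.0755 in edgeR. There 9.76% of all genes passed, against 1.29% with all 9 mice.

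Aqp11, an aquaporin of intracellular membranes whose loss causes proximal tubule vacuoles and cysts in mice (chr7:97724006-97738289, minus strand), varied little. Its level was 44.75, 38.22 and 45.28 CPM in *db/m* mice, 30.21, 40.82 and 46.23 CPM in *db/db* mice and 47.84, 47.53 and 50.01 CPM in *db/db*-dapa mice. Each treated mouse was above every other mouse, and the 3 treated values lay within 1.05-fold of each other. The log2 fold change was 0.30 (95% interval -0.09 to 0.69) for *db/db*-dapa against *db/db*, with an adjusted p of 0.851 in edgeR, and 0.18 for treated mice against *db/m*, with an adjusted p of 0.585. The first was 0.15 without *db/db* mouse 1 and 0.45 without *db/db* mouse 3. The exact two-sided permutation test gave p = 0.1 in both comparisons, the smallest value that 3 against 3 mice allow. Over all genes tested, 10.2% had groups that did not overlap in either direction when treated mice were set against *db/db*, and 28.2% when they were set against *db/m*. Total counts moved with this gene: over the 9 mice its log2 level and the log2 total count had a Pearson r of 0.907 (exact permutation p = 0.00314, adjusted p = 0.0209 over 20 relations) and a Spearman rho of 0.817 (exact permutation p = 0.0108). Without the 2 mice farthest from the median total, r was 0.592. Aqp1 had r = 0.85 with the total count (exact permutation p = 0.0055, adjusted p = 0.0275) and rho = 0.6 (exact permutation p = 0.0968), with r = 0.543 after the same omission. For Cldn2 the relation was firmer by rank, with rho = 0.85 (exact permutation p = 0.00607, adjusted p = 0.0405) beside r = 0.623 (exact permutation p = 0.0636, adjusted p = 0.254), and r was 0.857 without those 2 mice. The part of depth in the level of these genes was not tested.

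Aqp7, a channel for glycerol and water of the straight proximal tubule (chr4:41033074-41048139, minus strand), was at 24.27, 17.98 and 15.98 CPM in *db/m* mice, 22.06, 17.61 and 21.1 CPM in *db/db* mice and 23.71, 18.12 and 20.93 CPM in *db/db*-dapa mice. The 3 groups overlapped throughout, and its log2 fold changes were 0.05, 0.05 and 0.10 in the 3 comparisons, with 95% intervals that lay within the fold threshold of 1 in either direction. Its counts were fractional in 9 of 9 mice, and why was not tested. Its level is uncertain if reads were shared with another gene. The counts of the 9 other genes were whole numbers in each mouse.

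Cldn2, the cation and water pore of the leaky proximal tubule (chrX:139800828-139811386, plus strand, 2 exons), was the most abundant claudin in the table. Its level was 420.6, 611.2 and 351.4 CPM in *db/m* mice, 489.8, 370 and 967.2 CPM in *db/db* mice and 635.6, 766.2 and 833.3 CPM in *db/db*-dapa mice. Each treated mouse was above each *db/m* mouse, while the *db/db* mice spread 2.61-fold and overlapped both other groups. The mean was 461.1 ± 134.6 CPM in *db/m*, 609 ± 316 CPM in *db/db* and 745 ± 100.5 CPM in *db/db*-dapa (SD, n = 3 each). The log2 fold change was 0.69 (95% interval -0.03 to 1.41, SE 0.33) for *db/db*-dapa against *db/m*, with an unadjusted p of 0.0586 and an adjusted p of 0.287 in edgeR. For *db/db* against *db/m* it was 0.40 (95% interval -0.32 to 1.12), and it became -0.11 without *db/db* mouse 3. In the fit without that mouse, *db/db*-dapa against *db/db* gave 0.81 (adjusted p = 0.13, edgeR) in place of 0.29. For *db/db*-dapa against *db/m* the log2 fold change was 0.70 (adjusted p = 0.0883, edgeR), under the fold threshold. In that comparison 1634 of 15542 genes had an adjusted p under 0.1. The test over 3 groups gave Cldn2 an adjusted p of 0.0924 in edgeR, where 9.76% of all genes were under 0.1.

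Cldn1, a sealing claudin that in the kidney is known from the parietal cells of Bowman's capsule and from injured tubules (chr16:26356642-26371841, minus strand), was lower and more variable. Its level was 38.14, 73.83 and 17.98 CPM in *db/m* mice, 32.24, 32.01 and 44.21 CPM in *db/db* mice and 46, 56.98 and 38.25 CPM in *db/db*-dapa mice. The *db/m* mice alone spanned 4.11-fold, from the lowest to the highest value of all 9 mice, so they enclosed both other groups. The log2 fold changes were -0.26, 0.37 and 0.11 for *db/db* against *db/m*, treated against *db/db* and treated against *db/m*. The first ran from -0.63 without *db/m* mouse 3 to 0.36 without *db/m* mouse 2.

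Ocln, occludin, a membrane protein of the tight junction strands (chr13:100496507-100552718, minus strand), had the same highest and lowest mouse as Cldn1. Its level was 23.17, 31.59 and 11.1 CPM in *db/m* mice, 16.97, 11.6 and 20.34 CPM in *db/db* mice and 22, 27.7 and 20.14 CPM in *db/db*-dapa mice. The *db/db* values lay within the *db/m* range and 1 of them, in mouse 3, lay among the treated values. The log2 fold change was -0.43 (95% interval -1.18 to 0.32) for *db/db* against *db/m* and 0.51 (95% interval -0.23 to 1.25) for *db/db*-dapa against *db/db*, with adjusted p of 0.617 and 0.851 in edgeR. The first ran from -0.74 without *db/m* mouse 3 to -0.08 without *db/m* mouse 2, and the second from 0.31 without *db/db* mouse 2 to 0.74 without *db/db* mouse 3.

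Tjp1, which encodes the scaffold ZO-1 (chr7:65296165-65527781, minus strand, 28 exons), was the gene of the list with the largest share of its variance between groups. Its level was 26.79, 28.45 and 22.2 CPM in *db/m* mice, 33.26, 32.21 and 44.84 CPM in *db/db* mice and 33.36, 36.5 and 40.4 CPM in *db/db*-dapa mice. All 6 *db/db* and *db/db*-dapa values lay above all 3 *db/m* values, and the 2 diabetic groups overlapped. The means were 25.81 ± 3.24, 36.77 ± 7.009 and 36.75 ± 3.524 CPM (SD, n = 3 each). The log2 fold change was 0.52 (95% interval 0.10 to 0.93, SE 0.19) for *db/db* against *db/m*, with an unadjusted p of 0.0191 and an adjusted p of 0.258 in edgeR. It was 0.51 (95% interval 0.10 to 0.92, SE 0.19) for *db/db*-dapa against *db/m*, with an unadjusted p of 0.0195 and an adjusted p of 0.218. For *db/db*-dapa against *db/db* it was -0.01 (95% interval -0.41 to 0.40). The first 2 comparisons share their *db/m* mice. Groups without overlap and with the first group higher made up 8.21% of all genes when *db/db* was set against *db/m* and 14.4% when treated mice were. Without *db/db* mouse 3 the log2 fold change for *db/db* against *db/m* was 0.33 (adjusted p = 0.495, edgeR). In that fit it was 0.51 for *db/db*-dapa against *db/m* (adjusted p = 0.0877, edgeR), under the fold threshold.

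**Figure D2:**
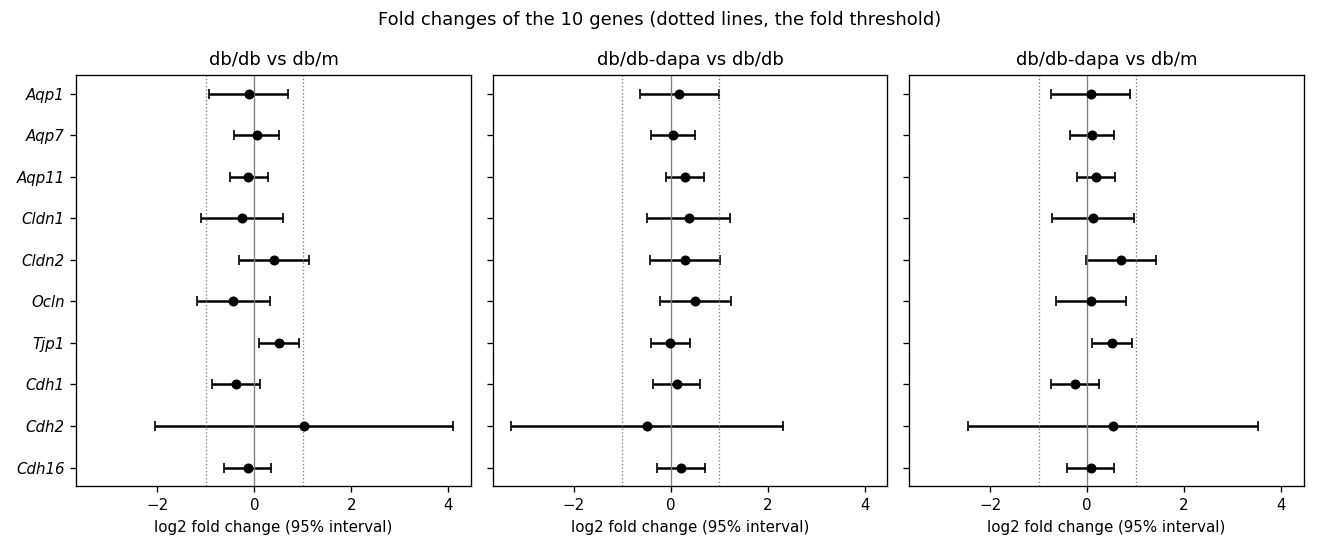
Log2 fold change of each of the 10 genes (points) with its 95% interval (bars) from edgeR in the 3 comparisons, positive where the first-named group was higher, with dotted lines at the fold threshold of 1 in either direction. The intervals of Tjp1 against db/m lay above 0 and those of the other genes crossed 0. The intervals of Cdh2 were the widest.

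The promoters of Cldn1, Ocln, Cldn2 and Tjp1 are shown because these 4 junction genes fell into 2 pairs that varied together across mice, as described below. They are the 250 bases before the transcription start in RefSeq (GRCm38.p6), 5′ to 3′ on the gene's strand, in lower case, with matches to any of 6 searched motifs in capitals.
Cldn1, chr16:26371840-26372089, minus strand: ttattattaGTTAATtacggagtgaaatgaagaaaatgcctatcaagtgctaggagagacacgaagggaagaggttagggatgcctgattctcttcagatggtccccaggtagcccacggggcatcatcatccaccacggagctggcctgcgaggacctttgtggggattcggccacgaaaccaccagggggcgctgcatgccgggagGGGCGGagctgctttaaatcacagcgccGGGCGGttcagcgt
Ocln, chr13:100552719-100552968, minus strand: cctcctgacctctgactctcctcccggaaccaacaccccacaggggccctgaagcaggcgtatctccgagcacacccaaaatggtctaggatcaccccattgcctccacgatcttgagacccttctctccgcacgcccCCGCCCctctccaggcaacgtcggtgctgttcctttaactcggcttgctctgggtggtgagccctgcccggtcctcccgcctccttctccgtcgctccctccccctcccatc
Cldn2, chrX:139800558-139800807, plus strand: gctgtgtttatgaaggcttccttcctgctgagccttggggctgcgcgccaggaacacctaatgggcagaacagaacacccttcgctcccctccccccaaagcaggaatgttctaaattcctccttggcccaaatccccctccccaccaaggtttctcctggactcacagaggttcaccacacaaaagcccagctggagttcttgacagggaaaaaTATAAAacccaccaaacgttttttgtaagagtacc
Tjp1, chr7:65371245-65371494, minus strand: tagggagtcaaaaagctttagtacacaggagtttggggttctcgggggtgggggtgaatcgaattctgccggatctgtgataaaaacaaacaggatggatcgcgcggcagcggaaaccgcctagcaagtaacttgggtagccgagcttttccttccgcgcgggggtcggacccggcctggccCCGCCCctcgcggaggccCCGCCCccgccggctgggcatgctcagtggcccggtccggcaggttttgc
The motifs, searched on both strands and here without overlap of one with another, were the GC box (GGGCGG), the CCAAT box (CCAAT), the TATA box (TATAAA), a core motif of the tubular transcription factor HNF1 (GTTAAT), the E-box CAGGTG and the AP-1 site (TGANTCA). They occurred in 32.7%, 33.8%, 12.4%, 6.43%, 17.2% and 6.75% of 32851 mouse promoters of the same length. Cldn1 had 2 GC boxes and the HNF1 motif, Ocln 1 GC box, Tjp1 2 GC boxes, and Cldn2 the TATA box alone, with its first base 35 bases before the start. The second RefSeq start of Ocln, whose window overlaps the one shown, had 1 GC box, 1 CCAAT box and 2 E-boxes. A match of letters is a description of the window and not evidence of binding. The Tjp1 window lies inside the gene span given above, since that span begins at a start farther upstream. RefSeq promoters were matched for 7 of the 10 genes.

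Cdh16, Ksp-cadherin (chr8:104601911-104624396, minus strand, 18 exons), had the highest level of the list. It was at 1030, 1153 and 1431 CPM in *db/m* mice, 1403, 815.9 and 1068 CPM in *db/db* mice and 1385, 1302 and 1117 CPM in *db/db*-dapa mice. The groups overlapped, and the log2 fold changes of -0.14, 0.21 and 0.07 had 95% intervals within the fold threshold of 1 in either direction. Cdh1, E-cadherin (chr8:106603351-106670246, plus strand, 16 exons), was at 130.5, 98.79 and 97.22 CPM in *db/m* mice, 75.01, 65.63 and 110.4 CPM in *db/db* mice and 75.81, 97.03 and 101.3 CPM in *db/db*-dapa mice. In 2 of 3 *db/db* mice Cdh1 was below every other mouse, and in the third it was above every *db/m* mouse but 1. Its log2 fold change was -0.38 (95% interval -0.87 to 0.12) for *db/db* against *db/m*, with an unadjusted p of 0.122 and an adjusted p of 0.497 in edgeR, and -0.64 without *db/db* mouse 3 (adjusted p = 0.2).

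Cdh2, N-cadherin, was close to the limit of detection. The 9 mice had 1, 0 and 7 counts (*db/m*), 2, 11 and 3 counts (*db/db*) and 1, 0 and 18 counts (*db/db*-dapa), that is between 0 and 2.201 CPM. In each group 1 mouse held most of the counts. A log2 fold change of 1.02 for *db/db* against *db/m* had a 95% interval from -2.05 to 4.10, so no direction was detectable at this depth. Per kilobase of the longest coding transcript, the mean over the 9 mice was 0.164 CPM for Cdh2, 21.36 CPM for Cdh1 and 406.9 CPM for Cdh16, and this order held in each of the 9 mice.

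Levels of the 10 genes were compared with each other per kilobase of the longest coding transcript. The order of the means was Cdh16 (406.9 CPM per kb), Aqp1 (255.4), Cldn2 (198.8), Cdh1 (21.36), Cldn1 (12.99), Aqp11 (11.62), Aqp7 (7.992), Ocln (5.062), Tjp1 (4.697) and Cdh2 (0.164). The first 3 formed a group apart from the rest: Cldn2 was 9.31-fold above Cdh1 in the mean and above it in 9 of 9 mice, with no overlap of the ranges. Within that group the order was not fixed, since Cdh16 was above Aqp1 in 8 of 9 mice and Aqp1 above Cldn2 in 7 of 9. Cldn1 and Aqp11 could not be ordered, with Cldn1 higher in 5 of 9 mice, nor could Ocln and Tjp1, with Ocln higher in 4 of 9. The ranges of all neighbours overlapped except those of Cldn2 and Cdh1 and of Tjp1 and Cdh2.

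**Figure D3:**
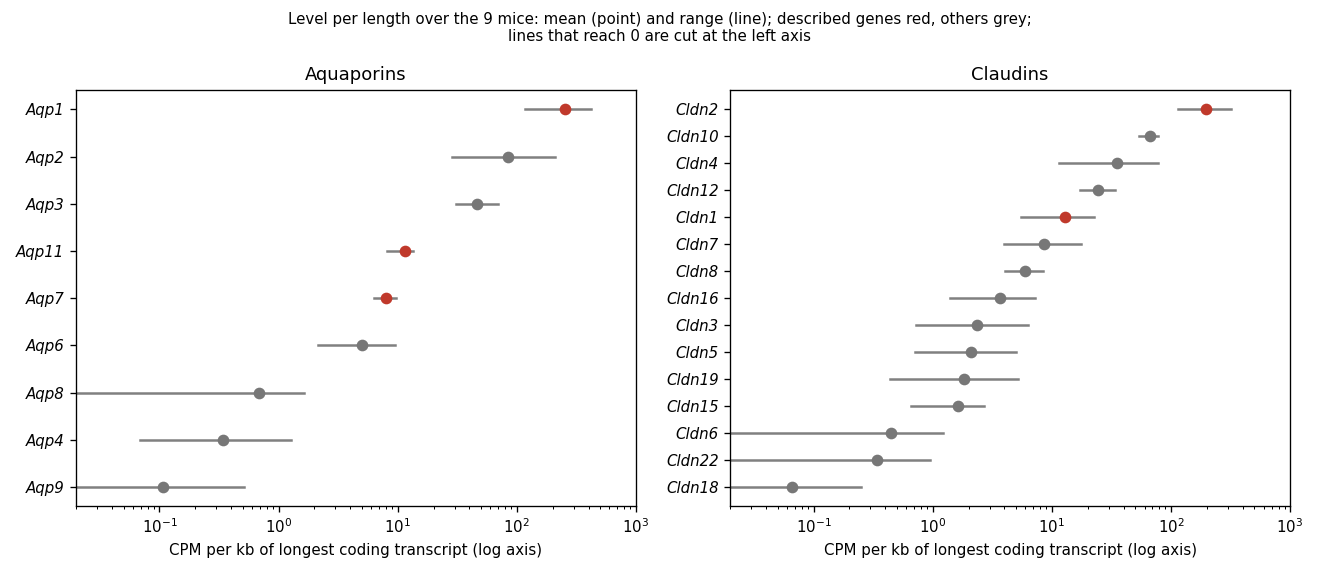
Mean level (points) and range over the 9 mice (lines) of the aquaporins and claudins with the highest means, in CPM per kilobase of the longest coding transcript on a log axis, with the genes described here in red and the other family members in grey. Aqp1 and Cldn2 led their families. Aqp2 and Aqp3, channels of the collecting duct, came next among the aquaporins.

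The spread between mice of 1 group was wide for several of the genes. The SD within groups on the log2(CPM + 1) scale was 0.613 for Cldn1, 0.57 for Aqp1, 0.497 for Ocln and 0.487 for Cldn2, against a median of 0.262 over the 9137 genes with a mean of at least 10 CPM. It was 0.195 for Aqp11, 0.197 for Tjp1 and 0.223 for Aqp7, and 0.281 for Cdh16 and 0.291 for Cdh1. For Cdh2, with few counts and a mean under 10 CPM, it was 0.753, the widest of the 10 genes. The share of a gene's variance that lay between groups was 67.5% for Tjp1, 41% for Aqp11 and 35.5% for Cldn2, and from 6.48% (Aqp7) to 32.2% (Cdh1) for the other 7 genes, with a median of 35.2% over the same 9137 genes. By median, the 10 genes were at -0.12, 0.20 and 0.11 on the log2 scale in the 3 comparisons, beside 0.02, -0.01 and -0.02 over all genes tested. The fitted value was above 0 for 4, 8 and 9 of the 10 genes, and for 51.6%, 48.7% and 48.4% of all genes.

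Single mice stood apart over the list, but the same counts were not made over all genes. Whether this is particular to the list was not tested. Leaving out Cdh2, *db/db* mouse 2 was below the gene's own mean for 9 of the 9 genes, *db/db* mouse 3 was above it for 8 of 9, and *db/m* mouse 3 was the lowest of all mice for 5 of 9. The 3 treated mice were alike by this measure, above the mean for 8, 7 and 7 of the 9 genes.

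The junction genes varied together in pairs. Over the 9 mice and on the log2(CPM + 1) scale, Cldn1 and Ocln had a Pearson r of 0.909 (exact permutation p = 0.0003, adjusted p = 0.0135 over 45 pairs) and a Spearman rho of 0.9 (exact permutation p = 0.00203). Without the 2 mice farthest from the median of Cldn1, r was 0.824, and for deviations from the group means it was 0.933. Cldn2 and Tjp1 had r = 0.84 (exact permutation p = 0.0043, adjusted p = 0.0968) and rho = 0.917 (exact permutation p = 0.00131), with r = 0.885 without the 2 mice farthest from the median of Cldn2 and 0.937 for deviations from the group means. These were the 2 pairs of 45 with an adjusted p under 0.1 for r. Ocln and Cdh2 were inversely related, with r = -0.821 (exact permutation p = 0.00709, adjusted p = 0.106) and rho = -0.895 (exact permutation p = 0.00225, adjusted p = 0.0337). So were Cldn1 and Cdh2, with r = -0.709 (exact permutation p = 0.0252, adjusted p = 0.227) and rho = -0.828 (exact permutation p = 0.00875, adjusted p = 0.0985). The Cdh2 values rest on few counts. Aqp1 and Aqp11 had r = 0.774 (exact permutation p = 0.0201, adjusted p = 0.227) and rho = 0.417, and r fell to 0.439 without the 2 mice farthest from the median of Aqp1, so that relation rests on those mice. The extremes of both Cldn1 and Ocln were *db/m* mouse 2 at the top and *db/m* mouse 3 at the bottom, and these were the 2 mice left out above.

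**Figure D4:**
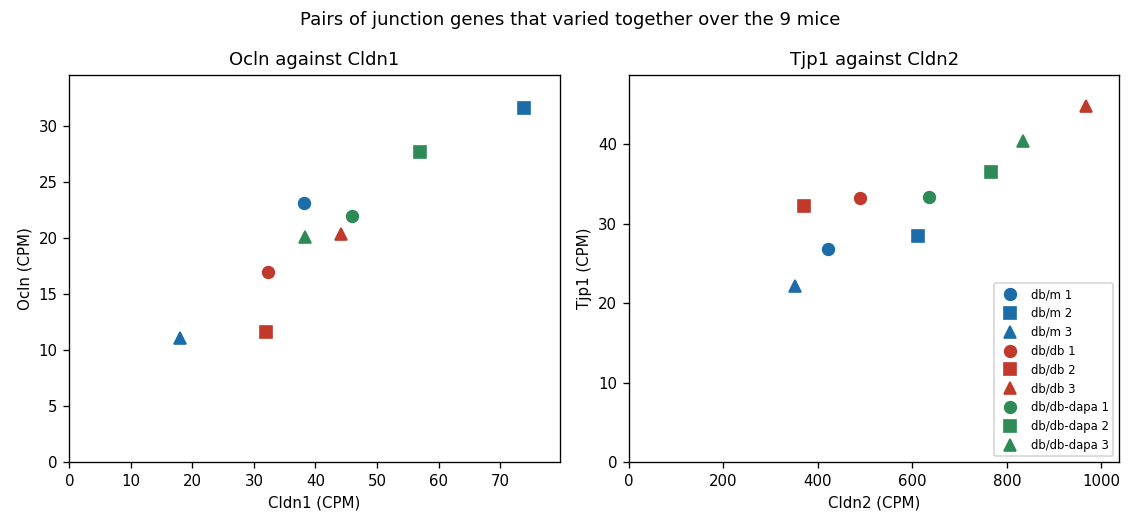
Ocln against Cldn1 (left) and Tjp1 against Cldn2 (right), in CPM on linear axes from 0, with 1 point per mouse, colours for groups and circles, squares and triangles for mice 1, 2 and 3. On the left db/m mice 2 and 3 were the extremes. On the right the 3 db/m mice lay below the other mice with a like Cldn2 level.

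Levels of other cell types moved with some of the genes. The distal convoluted tubule markers summed to 933.6 CPM in *db/m* mouse 3, where Cldn1 and Ocln were lowest, and to 320.1 CPM in *db/m* mouse 2, where both were highest. Over the 9 mice Cldn1 had r = -0.895 with this sum (exact permutation p = 0.000907, adjusted p = 0.0532 over 100 relations) and rho = -0.817 (exact permutation p = 0.0108), with r = -0.809 without the 2 mice farthest from the median sum. Ocln had r = -0.815 (exact permutation p = 0.0103, adjusted p = 0.154) and rho = -0.767 (exact permutation p = 0.0214). Cdh1 had r = -0.842 with the 7 endothelial markers (exact permutation p = 0.00289, adjusted p = 0.0577) and rho = -0.817 (exact permutation p = 0.0108), and these summed to between 43.45 and 187.9 CPM. Cldn2 and Tjp1 followed the summed proximal tubule markers, with r = 0.917 (exact permutation p = 0.00111, adjusted p = 0.0532) and r = 0.862 (exact permutation p = 0.00213, adjusted p = 0.0532), and rho was 0.9 for both. The markers of that sum did not all move alike. In *db/db* mouse 3, where Cldn2 and Tjp1 were highest, Lrp2 was at 5282 CPM, against 2179 CPM in *db/db* mouse 1. Slc5a2 was at 759.8 CPM in *db/db* mouse 3, against 2121 CPM in *db/db* mouse 1. Ggt1 was highest, at 2156 CPM, in *db/m* mouse 3, where Cldn2 and Tjp1 were lowest. Aqp1 had r = -0.827 with the 10 tubular injury markers (exact permutation p = 0.00206, adjusted p = 0.0532) and rho = -0.933 (exact permutation p = 0.00075). The injury sum was 2356, 2327 and 1105 CPM in *db/db* mice 1 to 3, where Aqp1 was 305.8, 462 and 1107 CPM. Spp1, at 1834, 1416 and 772.6 CPM, and Krt8, at 228.1, 652.3 and 220.4 CPM, made up most of that sum, while Havcr1, which encodes the injury marker KIM-1, was at 2.036, 0.2001 and 1.39 CPM. Of the 10 injury markers, 7 had fitted values below 0 for *db/db* against *db/m*. The part of cell make-up in these levels was not tested. Markers of the S3 segment, the last part of the proximal tubule, differed between groups: their sum was 3965 to 4654 CPM in *db/m*, 808.8 to 2337 CPM in *db/db* and 2084 to 2561 CPM in *db/db*-dapa mice, and 2 of the 5, Slc22a7 and Acy3, were called lower in both diabetic groups than in *db/m* mice. Another, Slc5a10, had fitted values above 0 in both, with log2 fold changes of 0.99 (adjusted p = 0.315, edgeR) and 1.33 (adjusted p = 0.174). Cdh1 had r = 0.7 with that sum (exact permutation p = 0.0372, adjusted p = 0.248) and rho = 0.65 (exact permutation p = 0.0666).

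Long transcripts as a group moved with Tjp1, whose longest coding transcript is 7.05 kb. The 778 other genes at least as long with a mean of at least 10 CPM had a median log2 fold change of 0.39 for *db/db* against *db/m*, 0.10 for treated against *db/db* and 0.47 for treated against *db/m* mice, beside medians of -0.04, 0.04 and -0.00 for the 7888 shorter genes. In the first and last comparison 37.4% and 45.5% of the long genes were at or above the value of Tjp1. Per mouse, the median deviation of the long genes from their own means was -0.24, -0.08 and -0.46 in *db/m* mice, -0.13, -0.11 and 0.47 in *db/db* mice and -0.06, 0.27 and 0.36 in *db/db*-dapa mice, on the log2(CPM + 1) scale. Tjp1 was at -0.27, -0.18 and -0.53, then 0.03, -0.01 and 0.45, then 0.04, 0.16 and 0.31 on the same scale. The 2 series followed each other, with r = 0.947 (exact permutation p = 0.000201, adjusted p = 0.00339 over 20 relations) and rho = 0.933 (exact permutation p = 0.00075), and r = 0.884 without the 2 mice farthest from the median. Cldn2, whose longest coding transcript is 3.04 kb, followed the long genes too, with r = 0.924 (exact permutation p = 0.000339, adjusted p = 0.00339) and rho = 0.95 (exact permutation p = 0.000353). The part of transcript length or RNA quality in the level of Tjp1 was not tested. A transcript length was matched for 89.6% of the genes tested.

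**Figure D5:**
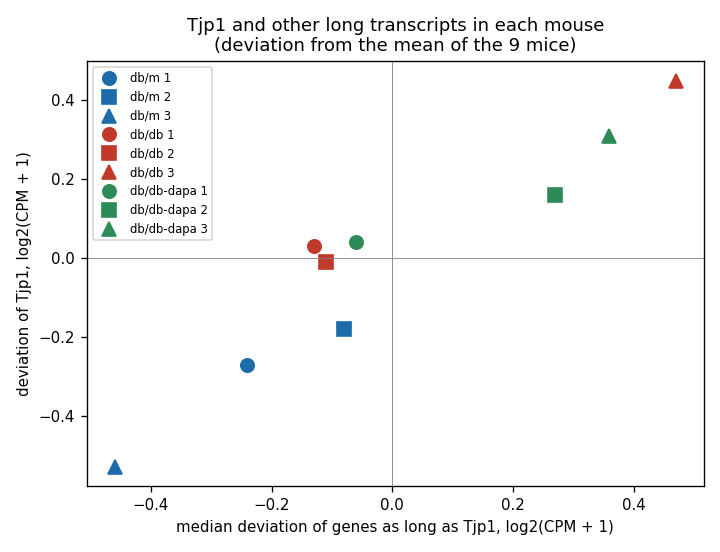
Deviation of Tjp1 from its mean over the 9 mice against the median deviation of the 778 genes with transcripts at least as long, both on the log2(CPM + 1) scale, with 1 point per mouse. The points ran from db/m mouse 3 (-0.46 and -0.53) to db/db mouse 3 (0.47 and 0.45).

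The genes whose levels followed each of the 10 genes most closely were chosen as the highest Pearson r over the 9 mice among the genes with a mean of at least 10 CPM, and are given as a description with no test. Tjp1 was followed by Tnrc6b (r = 0.9939), Ash1l (r = 0.991) and Pikfyve (r = 0.986). Cldn2 was followed by Slc26a1, a sulfate transporter of the proximal tubule (r = 0.9906), Mgat2 (r = 0.9835) and Ascc3 (r = 0.983). The closest gene was Mtor for Aqp1 (r = 0.9774), Hgsnat for Aqp11 (r = 0.9558), Eif4enif1 for Aqp7 (r = 0.852), Cep83 for Cldn1 (r = 0.9469), Thbs1 for Ocln (r = 0.963), Papd7 for Cdh1 (r = 0.9628), Zw10 for Cdh16 (r = 0.919) and Fam109a for Cdh2 (r = 0.8915). The points share libraries and depth.

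The wider families were described from lists of the remaining aquaporins, claudins and junction genes. Of 9 other aquaporins, 6 passed the filter, and 0 were called in any comparison by edgeR. The 2 highest by CPM and per kilobase were Aqp2, the vasopressin-regulated channel of the collecting duct, at 40.83 to 295.2 CPM, and Aqp3, its basolateral partner, at 54.62 to 123.6 CPM. Both are principal cell markers, and Aqp2 was highest in *db/m* mouse 3. The median log2 fold changes of the 6 genes were -0.14, -0.98 and -0.94 in the 3 comparisons. Of 23 other claudins listed, 21 were in the table, 13 passed the filter and 0 were called. Claudin-10, which forms the paracellular channels of the proximal tubule and thick ascending limb, was at 115.7 to 166.5 CPM and Cldn12 at 64.37 to 126.2 CPM, the 2 highest by CPM. The claudins had medians of -0.33, -0.35 and -0.96, with fitted values below 0 for 10, 8 and 11 of the 13. Markers of several distal segments were also below 0 by median: the principal cell markers at -0.52, -0.76 and -1.30, with 8 of 8 below 0 in each comparison, the intercalated cell markers at -0.39, -0.45 and -1.20, and the thick ascending limb markers, which include Cldn16 and Cldn19, at -0.16, -0.54 and -0.72. Those of the distal convoluted tubule were at 0.19, -0.60 and -0.55. The part of these cells in the claudin and aquaporin medians was not tested.

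Of 23 other tight junction genes all passed the filter and 0 were called. Cgnl1, paracingulin, was at 267.4 to 571.9 CPM and led the list by CPM and per kilobase, with a mean of 58.46 CPM per kb. It had a log2 fold change of 0.80 for *db/db*-dapa against *db/m* with an adjusted p of 0.0931 in edgeR, under the fold threshold. Its level was 267.4, 316.3 and 299.9 CPM in *db/m* mice, 386.3, 300.3 and 442 CPM in *db/db* mice and 498.3, 571.9 and 471.5 CPM in *db/db*-dapa mice, so each treated mouse was above each other mouse. Ildr2, an angulin of tricellular junctions, had the next highest mean by CPM, at 47.94 to 176.8 CPM, but its long transcript put it at 12.74 CPM per kb, below several other genes of the list. The medians of the list were -0.00, 0.22 and -0.01.

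Of 17 other adherens junction genes all passed and 0 were called. Ctnnb1, beta-catenin, which binds the tails of classical cadherins, was at 292.1 to 408.8 CPM, and Pkp4, an armadillo protein of cell contacts, at 271 to 343.5 CPM. Their log2 fold changes lay between -0.16 and 0.10. Cdh6, a cadherin known from the developing proximal tubule and singled out here after its values were seen, was at 0.6659 to 2.021 CPM and so as low as Cdh2. All 6 desmosome genes passed, led by Perp at 49.89 to 75.02 CPM and Pkp2 at 28.85 to 48.54 CPM, as did all 8 gap junction genes, led by the connexins Gjb2 at 78.63 to 193.1 CPM and Gjb1 at 30.61 to 51.94 CPM. In each of these lists 0 genes were called. The medians in the 3 comparisons were 0.04, 0.04 and 0.18 for adherens junctions and -0.15, 0.05 and -0.27 for desmosomes. They were 0.08, -0.98 and -0.26 for gap junctions. For treated against *db/db* mice, 5 of the 8 gap junction genes were below 0. These were Gja1, Gja4, Gjb6, Gjc1 and Panx1, with only 150, 147, 69, 53 and 32 counts over the 9 mice. The 3 above 0 were Gja5 (0.93, with 65 counts) and the more abundant Gjb1 (0.33) and Gjb2 (0.01).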

How the data were processed

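RNA of sorted tdTomato-positive cells from 9 mice (3 per group) was sequenced by the authors as poly(A) libraries, and the submitters' notes name TopHat2 2.0.13, Bowtie2 2.2.3, SAMtools 0.1.19 and Cufflinks 2.2.1 with mm10. The deposited values are estimated counts per gene: 90.95% were whole numbers and the totals per mouse differed, from 2733978 to 9033920, although the table is named for FPKM. They were rounded, and no column was left out. R 4.3.3 with edgeR 4.0.16 (quasi-likelihood, TMM scaling, group as the only term, 1 fit of 9 mice) tested genes with at least 0.3 CPM in at least 2 of 9 mice. CPM levels were computed on TMM-scaled totals, whereas the filter used unadjusted totals. Calls used the thresholds of the study, a log2 fold change beyond 1 in either direction with adjusted p below 0.1. DESeq2 1.42.0, limma 3.58.1 on log2(CPM + 1) and log2(CPM + 0.1), other scalings, other filters, 6-mouse fits, a replicate block and leaving out each mouse were alternatives. The fit was tested on simulated data. Correlations used exact two-sided permutation tests over all pairings of the 9 mice. Replicate libraries had Pearson r between 0.955 and 0.992.

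The genes, lists and tests were chosen with earlier results of these data known, and the description by transcript length and depth was added after seeing the data. Genes named beyond the 10 were the 2 highest by mean CPM of each list, any called gene of these lists, the closest gene by correlation (the closest 3 for Tjp1 and Cldn2) and genes singled out after their values were seen (Cdh6 and some cell type markers). Gene positions and transcript lengths are from GENCODE M21 (GRCm38), and promoters are from RefSeq (GRCm38.p6). The table uses older symbols for some genes, and 2 listed claudins, Cldn25 and Cldn26, were not matched. The p-values measure the spread between mice.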

Additional observations from a re-analysis of the deposited data

How the results depend on the processing

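Apart from leaving out a mouse, 0 of the 10 genes were called in any comparison under each alternative (RLE, total-count and upper-quartile scaling, no filter, 0.5 CPM in at least 1 mouse, DESeq2, limma with both pseudocounts, fits of 6 mice, no fold threshold and the replicate block). The exception among the fits of 8 mice was the test over 3 groups without *db/db* replicate 3. It called 2 of the 10, Aqp1 and Cldn2, beside 9.76% of all genes, on adjusted p alone with no fold threshold. Over the 9 omissions the lowest was 0 and the highest 2, and the cause was not tested. Over all genes, DESeq2 called 365, 12 and 513 in the 3 comparisons and 947 over 3 groups, against 183, 0, 156 and 202, and fits of 6 mice called 101, 0 and 626. Leaving out 1 mouse gave 84 to 230, 0 to 274 and 14 to 657 calls in the 3 comparisons and 30 to 1517 over 3 groups, highest in each without *db/db* replicate 3. Replicate numbers were not used to pair the mice. Same-numbered deviations had correlations from -0.323 to 0.563, and 0.403, -0.159 and 0.563 for *db/db*-dapa against *db/db*. With 3 mice a group these cannot settle whether the numbers pair the mice. A fit with the replicate block called 0 of the 10 genes and 182, 0, 162 and 156 genes in all. Total-count scaling moved the median log2 fold change of all genes for *db/db* against *db/m* from 0.02 to 0.13.

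Of the values for single genes under alternatives, 538 kept their direction and 32 turned. For *db/db*-dapa against *db/db*, Aqp7 was -0.02 under total-count and -0.01 under upper-quartile scaling, and Tjp1 was 0.01 in limma with either pseudocount. Leaving out 1 mouse gave, for *db/db* against *db/m*, Aqp1 -0.82 to 0.21, Aqp7 -0.07 to 0.25, Aqp11 -0.26 to 0.03, Cldn1 -0.63 to 0.36, Cldn2 -0.11 to 0.66, Cdh2 -0.09 to 3.42 and Cdh16 -0.36 to 0.04. For *db/db*-dapa against *db/db* it gave Aqp1 -0.14 to 0.90, Aqp7 -0.04 to 0.15, Tjp1 -0.10 to 0.18, Cdh1 -0.03 to 0.40 and Cdh2 -3.60 to 0.61, and for treated mice against *db/m* Aqp1 -0.10 to 0.16, Aqp7 -0.02 to 0.30, Cldn1 -0.25 to 0.73, Ocln -0.24 to 0.43, Cdh2 -2.58 to 2.94 and Cdh16 -0.03 to 0.21. With 3 mice a group, changes of the size of the 95% intervals could not be told from 0, and DESeq2 gave no adjusted p for Cdh2.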
